A study of Arabidopsis thaliana with 12 samples.

Results

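Tandem 3' splice sites are introns that can end at either of 2 acceptors lying 3 bases apart, so that the exon that follows begins 3 bases earlier or later. They were taken from the authors' rMATS tables of alternative 3' splice sites as the events whose longer and shorter exon differ by 3 bases, with a level in every library. This gave 3345 of 65996 events in the accession Col-0, in 2652 genes, and 3407 of 70095 in Kn-0, in 2701 genes. They stood for 3277 and 3346 pairs of acceptors, because an intron with several starts or an exon with several ends is listed more than once. More than 1 pair was found in 491 genes of Col-0 and 523 of Kn-0.

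The libraries were made from polyadenylated RNA of whole Arabidopsis thaliana seedlings, 4 days old, of 2 natural accessions, Kn-0 and the reference strain Col-0, with no transgene named in the labels. After growth in continuous light they spent 3 h on fresh control medium, called mock here, or on medium that held abscisic acid (ABA) at 5 µM, a hormone of drought and seed maturation. There were 4 groups of 3 biological replicates, Col-0 mock, Col-0 ABA, Kn-0 mock and Kn-0 ABA, and the crossed design bears on the response to ABA and on how it varies between accessions. Because whole seedlings were used, a change in the mix of cells and a change within cells cannot be told apart.

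An intron ends in AG, and the spliceosome chooses that AG in its second catalytic step, after the branch point has been joined to the intron's start. The base before the AG matters in yeast and animals, where C or T is preferred, A is weaker and G is poor. When AG is repeated 3 bases further on, both can be used, and because 3 bases are a codon's length the reading frame downstream is kept. The measurement is the rMATS inclusion level, from 0 to 1: here it is the share of use of the upstream acceptor, the one met first from the branch point, computed by the authors from junction reads divided by the effective lengths of the 2 forms (127 and 124 positions). A level of 1 stands for the upstream acceptor alone and 0 for the downstream one alone, to the 3 decimals deposited.

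The sequences show the choice that the spliceosome faced. Each is 30 bases of the coding strand from the TAIR10 genome (RefSeq), 5′ to 3′, with both acceptors in capitals: the intron ends after the first or after the second capital triplet. For each pair of letters, the site with the most junction reads in Col-0 is shown, chosen to span the range from sole use of the first acceptor to sole use of the second.
CA1, chr3:195329-195358, minus strand: taaatgtattgataaatgCAGGAGgcggtg
TGG1, chr5:9081545-9081574, minus strand: gatatttatatatatgagCAGAAGgaaaga
AT3G11930, chr3:3776892-3776921, plus strand: ttttgtgaacggttgtagCAGCAGtgtacg
FEI1, chr1:11252735-11252764, plus strand: gaagtttggttcttgaatTAGTAGagagag
AT3G62840, chr3:23236106-23236135, minus strand: tccttgaatgtcattcttTAGCAGggaaag
SBPASE, chr3:20709819-20709848, plus strand: attgtaataatttgataaAAGCAGcgtcta
CA2, chr5:4760700-4760729, plus strand: tatatcacaaaaatatacGAGCAGtgagaa
GOX1, chr3:4822591-4822620, plus strand: tcttatgttataatctttGAGTAGgtatac

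These 8 sites ran from near 1 to near 0, with the 3 whose triplets both begin with C or T between the ends. CA1, a carbonic anhydrase of the chloroplast, had a level of 1 to 3 decimals in all Col-0 libraries, with 68648 to 76367 junction reads in each. TGG1, a myrosinase, lay between 0.999 and 1 in all 12 libraries. AT3G11930, annotated in the adenine nucleotide alpha hydrolase family, used both acceptors, with levels of 0.834, 0.848 and 0.823 in Col-0 mock and 0.825, 0.837 and 0.821 in Kn-0 mock. FEI1 and AT3G62840 used both as well, with mean levels of 0.479 and 0.653 in Col-0 mock, the reverse of the order of the medians of their letters, TAGTAG and TAGCAG, given below. SBPASE, the sedoheptulose bisphosphatase of the Calvin cycle, was at 0.003 or 0.004 in every Col-0 library. CA2, another carbonic anhydrase, was at 0.001 in all 12 libraries, and GOX1, a glycolate oxidase, was listed at 0. The upstream acceptor of GOX1 had between 1 and 3 of 14289 to 15890 reads in each Col-0 library. All 8 sites lie in coding sequence. The deepest sites of 6 further pairs of letters had levels of 1 in AT2G37220 (TAGGAG) and RBCS1A (AAGAAG), 0.987 to 0.991 in AT4G10480 (AAGGAG), 0.962 to 0.972 in RP1 (TAGAAG), 0.798 to 0.838 in AT5G20090 (CAGTAG) and 0.009 to 0.021 in AT4G29735 (GAGAAG). The annotation lists neither acceptor of the RBCS1A site, so that site is not a known end of an intron. Kn-0 values are given where the site could be matched.

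Across the genome, tandem acceptors were a small part of the annotation. Of 131983 annotated acceptors in the TAIR10 reference, 99.47% end in AG, and 6.79% of those have another AG 3 bases before or after (2.24% before, 4.75% after). The base before the AG was C in 63.1%, T in 28.4%, A in 7.5% and G in 1.0% of them. Of the 3277 pairs in Col-0, 2761 (84.3%) have AG at both acceptors, 502 at 1 and 14 at neither. Of the 2761, the annotation lists both acceptors in 375 (13.6%), only the upstream one in 1362 (49.3%), only the downstream one in 608 (22.0%) and neither in 416 (15.1%). Where it lists any, 2138 pairs begin a stretch of coding sequence, 151 lie in a 5' UTR, 41 in a 3' UTR and 15 in noncoding transcripts. A pair is in the tables only where both junctions were annotated or found in reads, so sites at which a second AG was never used can be missing.

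Most sites used 1 acceptor nearly alone. With a minimum of 10 reads per library of the accession, 2876 sites were left in Col-0 and 2920 in Kn-0. The mean level was over 0.95 in 1628 Col-0 sites (56.6%) and 1662 Kn-0 sites (56.9%). It was under 0.05 in 647 (22.5%) and 653 (22.4%). The remaining 601 (20.9%) and 605 (20.7%) used both acceptors, with levels from 0.05 to 0.95. The 12 libraries were alike in this: the library median ranged from 0.983 to 0.986 and the share using both acceptors from 20.1% to 21.7%. The sites held 2812170 to 3023838 junction reads in each Col-0 library and 3110514 to 3222267 in each Kn-0 library. The plot of levels in each library shows the 2 peaks at the ends.

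**Figure D1:**
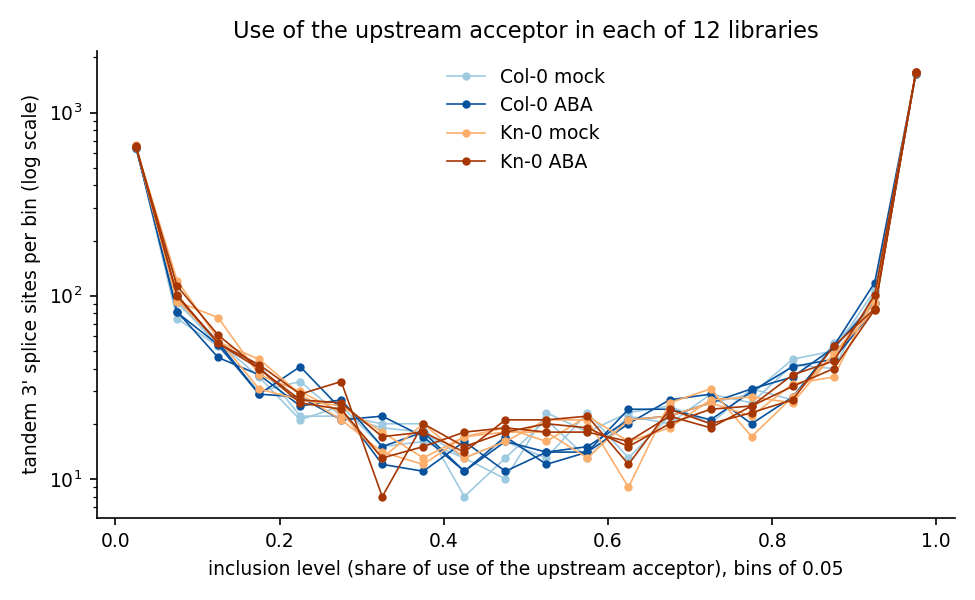
Number of tandem 3' splice sites (vertical axis, log scale) in bins of 0.05 of the inclusion level (horizontal axis), 1 line per library, coloured by group. Each library has 632 to 663 sites in the lowest bin and 1617 to 1667 in the highest, and 8 to 121 in each bin between.

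Use of both acceptors went with AG at both. Among pairs with AG at both acceptors, 570 of 2382 (23.9%) had a mean level from 0.05 to 0.95 in Col-0, against 21 of 464 (4.53%) of the others. Both were used at 60 of 125 pairs in 5' UTRs (48.0%), 13 of 32 in 3' UTRs (40.6%) and 430 of 2048 at coding exons. Pairs with both acceptors annotated had a share of 76.7% and a median level of 0.51, while the median was 0.997 where only the upstream acceptor was annotated and 0.0187 where only the downstream one was. These are counts over sites, which are not replicates, and carry no test.

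The letters before the AGs ordered the levels. With CAGGAG (381 sites) and TAGGAG (290) the median level in Col-0 was 0.999, and with CAGAAG (487) it was 0.993, so the downstream acceptor took few of the reads at most of these sites. With the order turned round, GAGCAG (105) had a median of 0.004, GAGTAG (42) of 0.00258 and AAGCAG (255) of 0.0237. Where both bases were pyrimidines the levels were spread out. CAGCAG (158 sites) had a median of 0.650 with quartiles at 0.257 and 0.892, and 82.3% of its sites used both acceptors. TAGCAG (208) had a median of 0.139 and 64.4% of sites using both, and CAGTAG (72) had 0.932 and 54.2%.

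Equal triplets did not give equal use. The medians were 0.650 for CAGCAG, 0.398 for TAGTAG (66 sites) and 0.940 for AAGAAG (76). Matched sites of Kn-0, grouped by the Col-0 letters, had like medians: 0.617 for CAGCAG, 0.144 for TAGCAG, 0.0233 for AAGCAG and 0.929 for CAGTAG. The median of TAGTAG was 0.160 in Kn-0 because fewer sites were matched; the same 46 sites had a median of 0.147 in Col-0. The medians of single Col-0 libraries for CAGCAG ran from 0.634 to 0.688, with a mean of the 3 library medians of 0.659 in mock and 0.654 in ABA.

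The base just before the first triplet, seen at the left of the capitals, was also associated with the level. With a purine (A or G) there, CAGCAG sites had a median level of 0.803 (91 pairs), and with a pyrimidine 0.288 (65 pairs). TAGCAG sites stood at 0.266 (76) and 0.0792 (128), AAGAAG sites at 0.953 (56) and 0.662 (17), and AAGTAG sites at 0.195 (32) and 0.0195 (28). A wide difference, 0.967 (16 pairs) and 0.0162 (17), was found with the letters GAGAAG. The median of all 33 GAGAAG sites was 0.300, and 0.0214 over the 16 with at least 50 reads in every library. In each of these 5 groups the level was higher after a purine, and the matched Kn-0 pairs had the same order, with 0.789 and 0.231 for CAGCAG and 0.277 and 0.0848 for TAGCAG. None of the other letters had a lower Col-0 median after a purine, though GAGCAG did in matched Kn-0 pairs (0.003 and 0.0045). The share of pyrimidines in the 20 bases before the sites was lower on the purine side, at a median of 60% against 65% for CAGCAG. The base used for the split is itself among these 20, so the split alone lowers that share. Whether the other bases differ cannot be told from these values, and their part in the level was not tested.

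Where the 3 bases in question read TAG, their place in the reading frame went with which acceptor was used. TAG is a stop codon, and it is read as one only where the junction falls between codons. In coding exons of Col-0, 79 pairs have TAG as a whole codon in this way, and their median level was 0.0322, with 3 of 79 (3.80%) over 0.5. The junction falls after the first base of a codon at 52 pairs, with a median of 0.58, and after the second at 60, with a median of 0.622; 27 (51.9%) and 35 (58.3%) of those were over 0.5. Matched Kn-0 pairs had medians of 0.0478 (61 pairs), 0.681 (40) and 0.675 (48). The upstream acceptor, whose use would put the stop codon into the message, was thus used little where the frame made it a stop.

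The pooled medians mix letters that differ in level. AAGTAG and GAGTAG make up 27 and 14 of the 79 pairs with TAG as a whole codon, 13 and 10 of the 52, and 6 and 15 of the 60. The medians of AAGTAG in these positions were 0.0242, 0.0535 and 0.158, and those of GAGTAG were 0.00467, 0.00233 and 0.00183. Within CAGTAG and TAGTAG the median was lowest at the pairs with TAG as a whole codon. At CAGTAG, whose upstream acceptor is otherwise the main one, the median level was 0.0667 at the 9 pairs with TAG as a whole codon, against 0.935 at 20 and 0.934 at 27 pairs in the other positions. In Kn-0 the matched pairs had 0.0817, 0.931 and 0.936. TAGTAG had 0.0867 (29 pairs), 0.63 (9) and 0.602 (12). CAGCAG, which makes no stop, had 0.623 (65), 0.633 (37) and 0.463 (12), and TAGCAG had 0.105 (98), 0.121 (35) and 0.106 (28). The frame was read from the annotation, and 73 of the 79 pairs with TAG as a whole codon are annotated only at the downstream acceptor. At CAGTAG this holds for 8 of the 9 such pairs, and for 0 of the 20 and 0 of the 27 in the other positions. At TAGTAG it holds for 26 of the 29, 0 of the 9 and 1 of the 12. An annotated coding sequence that began at the upstream acceptor would end there, so the frame and the annotated acceptor are not independent. Their parts in the level cannot be told apart from these values, also within 1 pair of letters. The 3 exceptions, named after their values were seen, are in AT1G61300 (annotated as a disease resistance protein), AT2G41880 (guanylate kinase 1) and AT3G02150 (plastid transcription factor 1). Loss of messages with an early stop was not measured here.

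A smaller set used both acceptors in every library. In 92 pairs matched between the accessions, the level was from 0.2 to 0.8 in all 12 libraries. Their letters were TAGCAG in 29, CAGCAG in 28, CAGTAG and TAGTAG in 9 each and AAGAAG in 7. Across these pairs the median absolute difference between ABA and mock was 0.0212 in Col-0 and 0.0202 in Kn-0. The largest were 0.161 and 0.177.

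The 8 deepest of these, which hold the firmest values, included a clock gene, a stress regulator and an enzyme of malate metabolism. Besides FEI1 and AT3G62840, shown above, their sequences are the following.
AT5G58330, chr5:23582015-23582044, minus strand: tttgtgaattgatgataaAAGTAGccaagc
PnsB4, chr1:6460875-6460904, plus strand: tcttagaatttgaaaaatTAGAAGaatgtt
RCD1, chr1:11615381-11615410, plus strand: ggtgttgttgtgtttaaaAAGCAGggagca
AT1G72640, chr1:27347653-27347682, minus strand: tctcatttgaaaccaatgAAGCAGaggaaa
LHY, chr1:35466-35495, minus strand: ttgttccattctgattttTAGCAGgtaagt
AT2G37480, chr2:15739229-15739258, plus strand: cacatgtttcttaaattgCAGCAGacacca

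AT5G58330, annotated as a lactate/malate dehydrogenase, had levels of 0.724, 0.738 and 0.748 in Col-0 mock and 0.739, 0.741 and 0.72 in Col-0 ABA, with 4677 to 5514 reads per library. In Kn-0 it had 0.742, 0.734 and 0.745 in mock and 0.734, 0.734 and 0.737 in ABA. All 12 libraries lie between 0.72 and 0.748, and the groups overlap. The AAGTAG letters of this site have a median of 0.0417, so it is an exception among its kind, and 2 bases of a codon precede its junction. PnsB4, a subunit of the chloroplast NDH complex, had 0.745, 0.733 and 0.737 in Col-0 mock and 0.767, 0.769 and 0.736 in ABA. In Kn-0 it had 0.75, 0.736 and 0.728 in mock and 0.755, 0.753 and 0.737 in ABA, so mock and ABA overlapped in both accessions.

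RCD1, a regulator that binds stress transcription factors, had 0.273, 0.278 and 0.253 in Col-0 mock and 0.246, 0.274 and 0.281 in ABA. Its Kn-0 levels were 0.264, 0.263 and 0.25 in mock and 0.264, 0.25 and 0.253 in ABA. The upstream acceptor thus took a steady minor share in every library, although its AAGCAG letters have a median of 0.0237. LHY, a transcription factor of the circadian clock, had 0.61, 0.632 and 0.575 in Col-0 mock, 0.566, 0.582 and 0.593 in Col-0 ABA, 0.57, 0.568 and 0.568 in Kn-0 mock and 0.559, 0.585 and 0.621 in Kn-0 ABA. FEI1, a receptor kinase of cell wall synthesis, was the most even of the 8, with 0.483, 0.451 and 0.504 in Col-0 mock and 0.481, 0.439 and 0.452 in Col-0 ABA, and 0.427 to 0.486 in Kn-0.

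AT3G62840, annotated as a small nuclear ribonucleoprotein, ranged from 0.637 to 0.672 in Col-0, and Kn-0 libraries spanned 0.645 to 0.686. AT1G72640, annotated with an NAD(P)-binding fold, lay between 0.284 and 0.319 in Col-0 while its Kn-0 levels were 0.25 to 0.28, so the accessions did not overlap, but the limma test described below did not call it (adjusted p = 0.405 in mock). AT2G37480 had 0.76, 0.764 and 0.75 in Col-0 mock and 0.731, 0.724 and 0.739 in ABA, which do not overlap, while its Kn-0 groups do and differ in the other direction (mean 0.719 and 0.739). For all 8 the rMATS FDR for ABA against mock was 1 in both accessions. The plot of these sites by library shows each keeping near its own level through the 4 groups. A site that left the range from 0.2 to 0.8 in any library was not eligible, so this steadiness is partly selected.

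**Figure D2:**
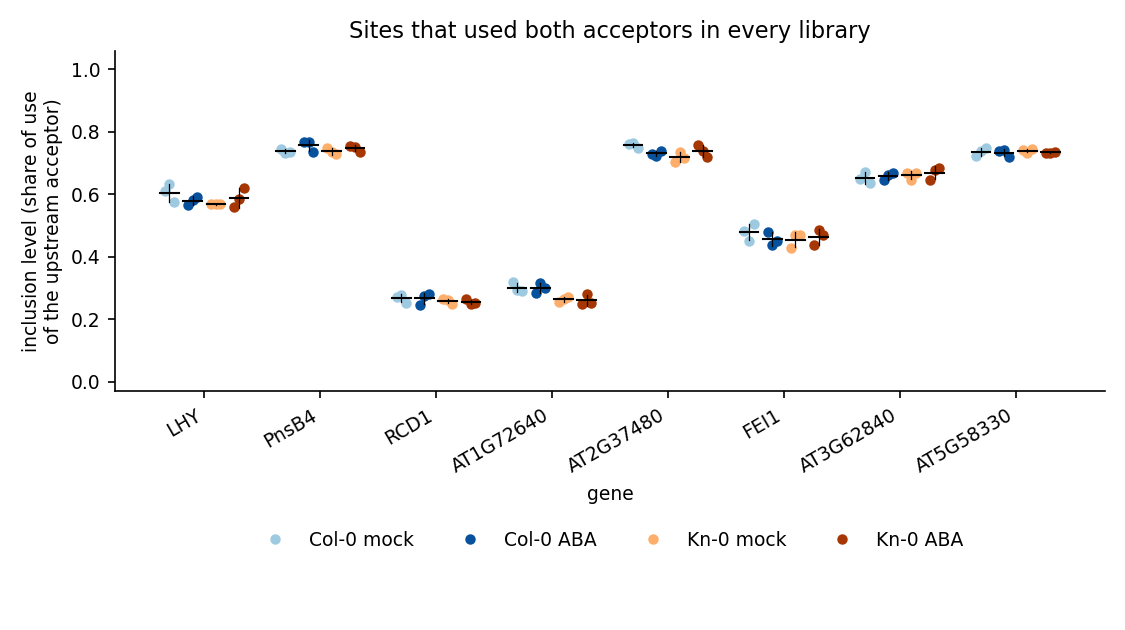
Inclusion level (vertical axis, share of use of the upstream acceptor) of the 8 deepest sites that used both acceptors in every library, by gene. Points are libraries, coloured by group, horizontal bars are means and vertical bars the SD of 3 libraries. Levels run from 0.246 to 0.769 across sites, while the 4 groups of a site lie close together.

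Few of these sites were called as changed by ABA, and those called had low depth. By the authors' rMATS test (FDR under 0.05, an absolute difference of 0.1 or more, and 10 or more junction reads in the library average), 5 of 3036 sites were called in Col-0, where the background over all alternative 3' splice sites was 0.0849%. In Kn-0 2 of 3070 were called, against a background of 0.0475%. The shares were 0.165% and 0.0651%, from 5 and 2 sites. In Col-0 3 rose and 2 fell under ABA (background 0.0408% higher and 0.0441% lower), and both Kn-0 sites fell (background 0.0291% higher and 0.0184% lower). With acceptors 4 to 18 bases apart, rMATS called 20 of 25477 (0.0785%) in Col-0 and 6 of 26814 (0.0224%) in Kn-0. With acceptors further apart it called 27 of 28990 (0.0931%) and 23 of 31492 (0.073%), so the share at tandem sites lay above both other classes in Col-0 and between them in Kn-0. These differences were not tested.

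ABCC9, an ABC transporter, had the largest of these differences. Its site has the letters CAGCAG.
ABCC9, chr3:22229083-22229112, minus strand: tgtttgctttgatatgagCAGCAGaaactg
Its levels were 0.921, 1 and 1 in Col-0 mock and 0.196, 0.661 and 0.55 in Col-0 ABA, on 13, 16 and 11 and on 5, 6 and 18 reads. The groups do not overlap, the difference in mean level was -0.505 and the rMATS FDR was 0.000294. Without each library in turn the difference ran from -0.601 to -0.368. The site was not matched in Kn-0.

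AT3G10260, a reticulon family gene, had 0, 0 and 0.065 in Col-0 mock and 0.262, 0.328 and 0.494 in Col-0 ABA (rMATS FDR 0.0114), on 3 to 15 reads per library. A total of 60 reads stands behind these values in Col-0, and in Kn-0 the levels went the other way, from 0.178, 0 and 0.196 in mock to 0 in all 3 ABA libraries (FDR 1). AT4G39970, a haloacid dehalogenase-like gene, had 0.578, 0.709 and 0.887 in mock and 1, 0.932 and 0.927 in ABA (FDR 0.0482). AT5G25265, annotated as a hydroxyproline arabinosyltransferase-like gene, had 0.864, 0.918 and 0.754 in Col-0 mock and 1, 1 and 0.924 in ABA (FDR 0.0465). The annotation lists neither acceptor of these 3 sites.

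AT5G49390, annotated as a regulatory subunit of protein phosphatase 4, fell from 0.969, 1 and 1 to 0.892, 0.932 and 0.715 (FDR 0.0271). Mock and ABA did not overlap at any of the 5 Col-0 sites. They were called on these same levels, so the lack of overlap adds no support to the calls. No library of these sites had more than 33 reads, and single libraries carried part of some differences: that of AT5G25265 was 0.129, and 0.0837 without Col-0 mock replicate 3. That of AT5G49390 was -0.143, and -0.0777 without Col-0 ABA replicate 3.

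The 2 sites called in Kn-0 overlapped between mock and ABA. UVR3, a photolyase that repairs ultraviolet damage, had 0.235, 0.049 and 0.107 in Kn-0 mock and 0, 0.052 and 0.021 in ABA (FDR 0.0251). Its Col-0 levels were 0.103, 0.12 and 0.131 in mock and 0.1, 0.089 and 0.041 in ABA, lower in ABA without overlap, but with an FDR of 1. The Kn-0 difference was -0.106, and -0.0537 without Kn-0 mock replicate 1. AT1G50670, an OTU-like cysteine protease gene, had 1, 0.938 and 1 in Kn-0 mock and 0.938, 0.841 and 0.807 in ABA (FDR 0.0295). In Col-0 its mean level was 0.899 in mock and 0.942 in ABA. Of the 7 sites, these 2 could be put to the second test, and it called neither (limma adjusted p = 0.934 and 0.87).

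**Figure D3:**
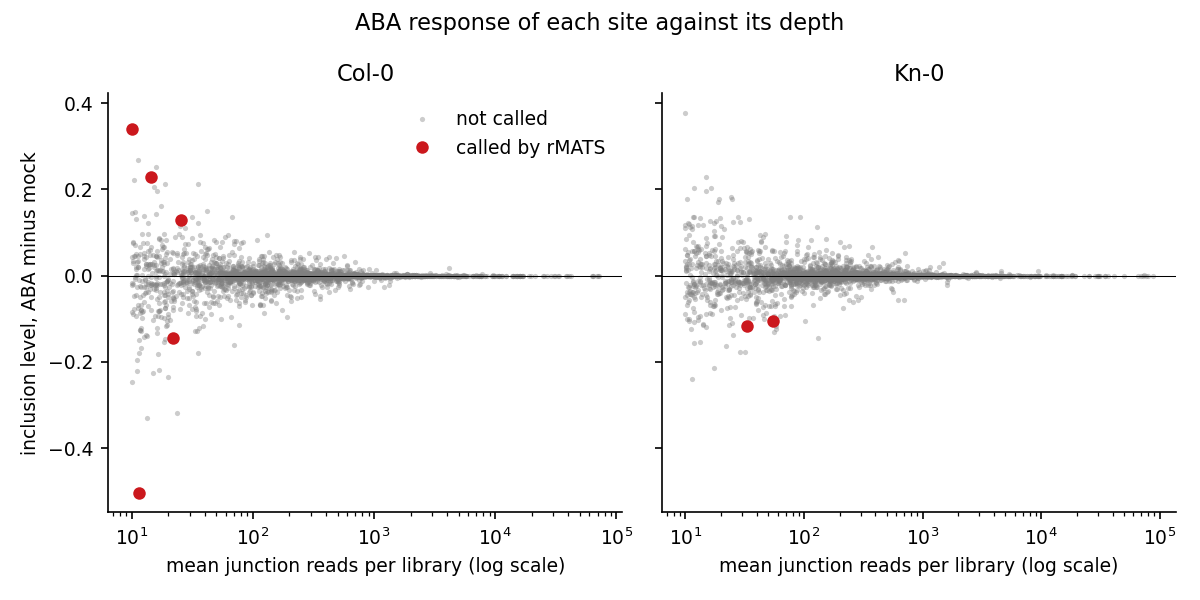
Difference in inclusion level, mean of 3 ABA libraries minus mean of 3 mock libraries (vertical axis), against mean junction reads per library (horizontal axis, log scale), for each site with a mean of at least 10 reads in Col-0 (left) and Kn-0 (right). Red points are the 5 and 2 sites called by rMATS, all at low depth, and the spread of the other points narrows as reads increase.

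The second test, limma on the log2 odds of the upstream over the downstream acceptor, covered 636 sites among 7031 matched events with at least 10 reads in all 12 libraries and a mean level from 0.02 to 0.98. It called 0 sites for ABA in Col-0, 0 in Kn-0 and 0 for the difference between the accessions in the response to ABA, and 0 of the 7031 events in each case (background 0%). At an unadjusted p under 0.05 there were 29 sites (4.56%), 32 (5.03%) and 30 (4.72%). The 95% interval of the ABA effect lay within a shift of 1 on the log2 odds scale for 30.2% of sites in Col-0 and 31.3% in Kn-0. For most sites a shift of that size could thus not be excluded. On simulated data for the comparison of accessions in mock, 100 of 7031 events were shifted by 1 and 100 by 2 on the log2 odds scale. At an adjusted p under 0.05, with no least difference, this test recovered 1% and 31% of them. Among those with a mean of at least 10 reads of the rarer form per library, it recovered 1.67% and 47.7%.

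The median absolute difference between ABA and mock was below the median SD of single libraries within a group in both accessions. The 2 are unlike measures, because a difference between means of 3 libraries is expected to vary less than single libraries do. Over the 410 Col-0 sites with a mean level from 0.1 to 0.9, the median absolute difference was 0.026, while the median SD within a group was 0.0387 in mock and 0.0386 in ABA. In Kn-0 (409 sites) it was 0.0227, with SDs of 0.0348 and 0.0374. With at least 100 reads in every library (200 and 213 sites) the median was 0.0165 and 0.014, and the largest was 0.0953 and 0.143. Genes whose own expression changed at least 2-fold under ABA in the authors' deposited table held 16 of the 410 Col-0 sites, with a median absolute difference of 0.027 against 0.0257 in the rest. In Kn-0 they held 8 of the 409, with 0.0172 against 0.0227.

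The accessions differed at a few sites by much more. Events of the 2 tables were matched by gene, strand, distance between acceptors and intron length, which gave 1914 sites, 57.3% of those in Col-0 and 56.2% of those in Kn-0. Of the 1694 with at least 10 reads in every library, the mock levels of the accessions correlated across sites (Pearson r 0.996, Spearman rho 0.942), which describes sites that share libraries and is not a test. The mean mock levels differed by at least 0.1 at 26 sites, 8 of them higher in Kn-0. By limma (adjusted p under 0.05 and a difference of at least 0.1), 7 of 636 sites were called in mock (1.10%, against a background of 1.74% of all events), 3 higher and 4 lower in Kn-0 (background 0.811% and 0.924%). In ABA 6 were called (0.943%, background 1.78%), 2 higher and 4 lower (background 0.939% and 0.839%). The share among tandem sites was thus no higher than among all events.

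**Figure D4:**
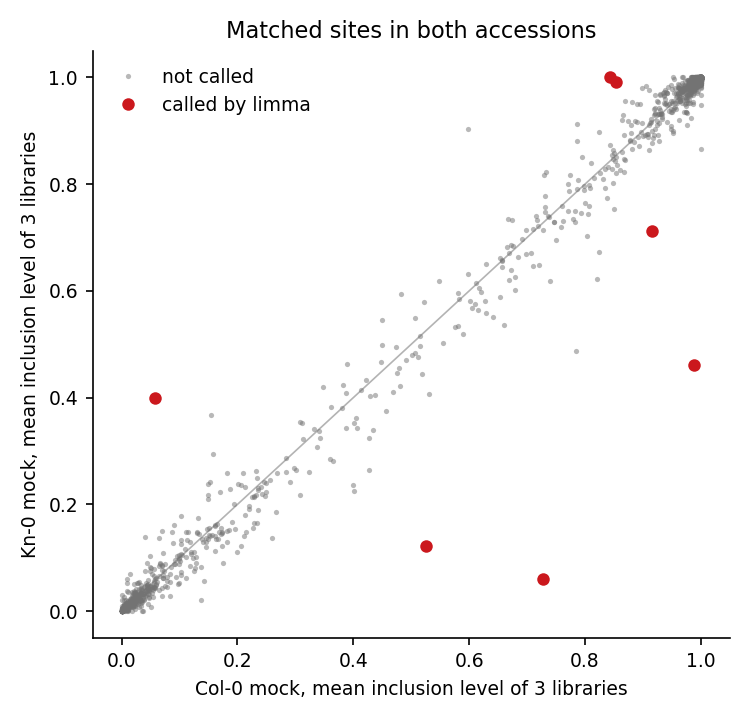
Mean inclusion level of 3 mock libraries in Kn-0 (vertical axis) against Col-0 (horizontal axis) for the 1694 matched sites; the line marks equal levels. The 7 sites called by limma are red: 4 lie below the line and 3 above, and most other sites lie near it or in the 2 corners.

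The sequences of the called sites in Col-0 are shown because the accessions split them differently; the Kn-0 tables use coordinates of another sequence, and Kn-0 letters were not analysed here.
AT5G61190, chr5:24619111-24619140, plus strand: ttaactaaaatatcgatgTAGAAGgcattt
AT5G41110, chr5:16453826-16453855, plus strand: gttttgttttgttctttgCAGAAGatcgac
PRD3, chr1:249993-250022, plus strand: ttttcttcatttgtcaccTAGTAGctcaga
AT2G44530, chr2:18383941-18383970, plus strand: gttggttgtggaattgaaAAGAAGtgtaac
SUVH3, chr1:27491726-27491755, plus strand: ctctttccacttttggtaTAGCAGagaatt
AT2G27710, chr2:11816905-11816934, plus strand: atctgttcactatttttcCAGAAGatgaag

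AT5G61190, annotated as a putative endonuclease with a C2H2 zinc finger, had levels of 0.727, 0.769 and 0.689 in Col-0 mock and 0.745, 0.785 and 0.741 in Col-0 ABA. In Kn-0 they were 0.047, 0.053 and 0.08 in mock and 0.062, 0.064 and 0.036 in ABA, on 106 to 161 reads per library. Seedlings of Kn-0 thus used mainly the downstream acceptor, and the groups of the accessions lie far apart. The log2 odds differed by -5.34 ± 0.405 (SE) in mock (limma adjusted p = 1.28e-06).

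AT5G41110, annotated in a meiotic chromosome segregation family, had 0.988, 1 and 0.977 in Col-0 mock and 1, 1 and 0.988 in ABA. In Kn-0 it had 0.424, 0.454 and 0.505 in mock and 0.58, 0.426 and 0.435 in ABA. Kn-0 therefore used both acceptors where Col-0 used 1, with a log2 odds difference of -6.13 ± 0.607 (SE) in mock (limma adjusted p = 2.61e-05).

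PRD3, a gene of meiotic double-strand break formation, had 0.534, 0.515 and 0.527 in Col-0 mock and 0.632, 0.562 and 0.623 in ABA. In Kn-0 it had 0.078, 0.19 and 0.098 in mock and 0.122, 0.169 and 0.2 in ABA. The accessions do not overlap (limma adjusted p = 0.00379 in mock). The Col-0 ABA libraries lie above those of mock without overlap, by 0.0803 in the mean, which rMATS did not call (FDR 1).

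SUVH3, a homologue of histone methyltransferases, went the other way, at a site in its 5' UTR. Its levels were 0.048, 0.04 and 0.085 in Col-0 mock and 0.062, 0.033 and 0.02 in ABA. In Kn-0 they were 0.373, 0.429 and 0.397 in mock and 0.385, 0.445 and 0.292 in ABA. Every Kn-0 library was higher than every Col-0 library (limma adjusted p = 0.000725 in mock).

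AT2G44530, a phosphoribosyltransferase gene, had 0.934, 0.907 and 0.908 in Col-0 mock and 0.868, 0.888 and 0.914 in ABA, against 0.711, 0.688 and 0.736 in Kn-0 mock and 0.661, 0.659 and 0.643 in ABA (limma adjusted p = 0.000187 in mock). In Kn-0 the ABA libraries lie below those of mock without overlap, by 0.0573, with an rMATS FDR of 1. AT2G27710, an acidic ribosomal protein gene, had 0.828 to 0.853 in Col-0, on 4008 to 5758 reads, and 1 in every Kn-0 library (limma adjusted p = 1.96e-09 in mock). A neighbouring gene of the same annotated family, AT2G27720, could share its reads, so this value is uncertain.

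The seventh site, in the 5' UTR of AT1G16180, a serinc-domain gene, had 0.825, 0.796 and 0.94 in Col-0 mock and 1, 0.972 and 1 in Kn-0 mock, with an adjusted p of 0.0471 in limma. In ABA it was not called (adjusted p = 0.0614), and 8 of the 12 fits that leave out a library lost its call in mock. The other 6 sites were called in both mock and ABA. Because reads of the accessions were placed on different sequences, placement can differ between them, and its part in these differences was not tested.

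**Figure D5:**
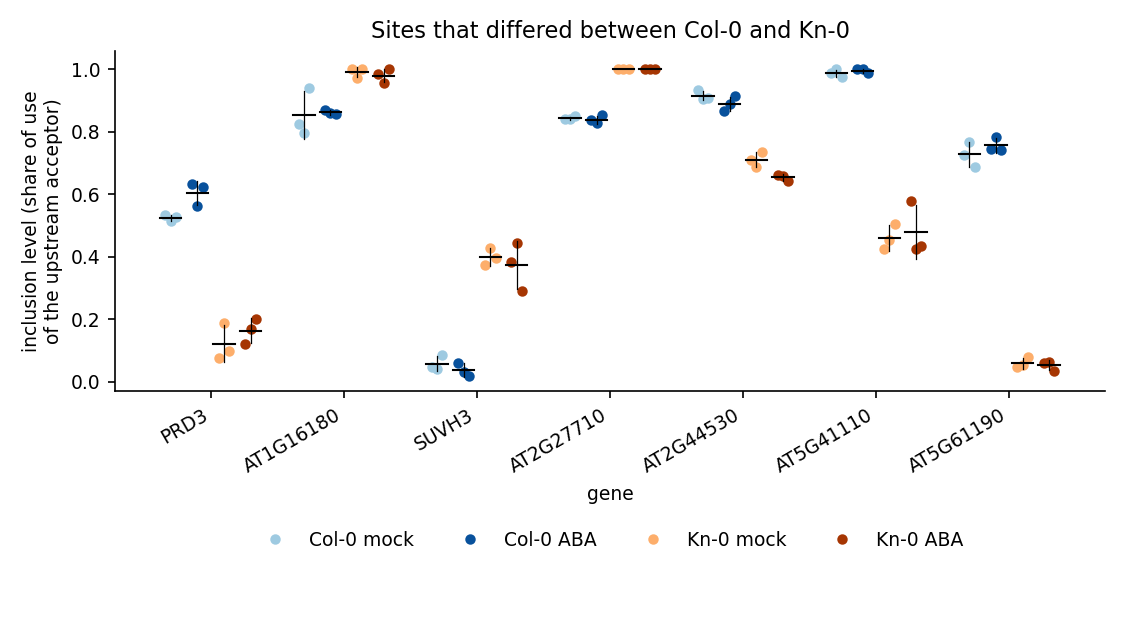
Inclusion level (vertical axis) of the 7 sites called between the accessions, by gene. Points are libraries, coloured by group, horizontal bars are means and vertical bars the SD of 3 libraries; at all 7 the Col-0 and Kn-0 libraries are separated, while mock and ABA of an accession lie closer together.

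Genes holding these sites changed in expression about as often as all genes in Col-0 and more often in Kn-0, while changes of at least 2-fold were less frequent among them in both. In the authors' deposited table, 1015 of 2641 tested genes with a site changed under ABA in Col-0 (38.4%; background 38.3%), 595 higher and 420 lower, and 1343 of 2688 in Kn-0 (50%; background 44.4%), 713 higher and 630 lower. Changes of at least 1 on the log2 scale were found in 112 (4.24%, background 9.31%) and 87 (3.24%, background 7.4%). A gene enters here only if a site had reads in every library of the accession, while the background holds all genes tested. The part of this selection in the differences from the background was not tested. The test of the site and that of the gene are separate: in the authors' deposited table AT3G11930 rose under ABA by 0.73 (Col-0) and 0.69 (Kn-0) on the log2 scale, while its level was 0.835 ± 0.0125 in Col-0 mock and 0.831 ± 0.00603 in Col-0 ABA (mean ± SD, n = 3).

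Factors that recognise the 3' splice site or act in the second step moved little. Of 11 such genes, the authors' deposited table has 2 higher and 0 lower under ABA in Col-0 (median log2 change 0.1, background 19.8% higher and 18.4% lower) and 2 higher and 1 lower in Kn-0 (median 0.03, background 22.9% and 21.5%). SLU7-1, whose yeast and human counterparts help choose the acceptor, rose in the authors' deposited table by 0.46 ± 0.0796 (SE) in Col-0 and by 0.43 ± 0.0545 in Kn-0. PRP16, a second-step helicase in yeast, rose by 0.31 ± 0.0745 (Col-0) and 0.19 ± 0.044 (Kn-0) there. PRP17 fell by 0.17 in Kn-0 there. Of 20 SR protein genes, 2 were higher and 0 lower in Col-0 (SR30 by 0.51 and SR34b by 0.25) and 1 higher and 3 lower in Kn-0 (SR30 by 0.46; SR34a -0.22, RS31 -0.22 and SCL30A -0.26), again from the authors' deposited table.

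Some of these factors have tandem sites of their own. SCL33, an SR protein, used both acceptors of a CAGCAG in its coding sequence, with 0.303, 0.278 and 0.314 in Col-0 mock and 0.323, 0.334 and 0.281 in ABA.
SCL33, chr1:20632127-20632156, plus strand: ttttttggttcgttggagCAGCAGatttcg
Its Kn-0 levels were 0.265, 0.273 and 0.265 in mock and 0.283, 0.289 and 0.292 in ABA, which do not overlap but differ by 0.0203 (rMATS FDR 1). U2AF65B (AT1G60900), named for a protein that in animals binds the pyrimidine tract, had a TAGCAG used at 0.071 to 0.14 in Col-0. SR45, a splicing regulator, had a CAGCAG used at 0.012 to 0.03, far below the median of 0.650 for these letters. That site follows a pyrimidine, where the median was 0.288 and the lower quartile 0.126. The CAGCAG of SCL33 follows a purine, and its levels lay below the median of 0.803 and the lower quartile of 0.537 found there. SLU7-1 and SLU7-2 (SMP1 and SMP2) have CAGGAG at 1 and 2 sites, with Col-0 levels from 0.996 to 1. A site in RS40, in its 5' UTR, had 0 to 0.103 in Col-0 on 19 to 30 reads. The remaining sites of listed genes were at 0.994 or above in every library in RSZ22a, RS2Z33, U2AF65B and SR45a in Col-0, at 0.002 or below at a second site of SR45, and rested on 9 to 39 reads per Col-0 library at a second site each of SR45a and SCL33.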

How the data were processed

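Polyadenylated RNA of 12 libraries was analysed, grouped by the labels' accession and treatment. Per the submitters' processing notes, the authors' tools include STAR, featureCounts and DESeq2 and the build TAIR10, with no versions or roles given. Deposited splicing tables are rMATS output of the authors, per the file headers, with junction read counts, inclusion levels (0 to 1), an inclusion difference (a score, mock minus ABA), p-values and FDRs; its version is not given in the sources used here. The deposited tables of genes give, from the authors, a mean normalized count (a signal, used only to read the tables), a log2 fold change with its standard error, and an adjusted p-value. How reads ending within a few bases of a junction were placed is not given either, and such reads can fit both acceptors; this was not tested.

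Many cells had lost the commas that part the 3 libraries. The digits were split into the counts that give back the deposited levels to within 0.0006, which failed for 2 Col-0 and 1 Kn-0 sites. At 1002 and 1020 sites, with levels at or near 0 or 1, several readings were possible and the one with the most even totals was taken. A replicate is a place in the deposited list. The Kn-0 tables use coordinates of another sequence (0 acceptors share one with Col-0), so events were matched by gene, strand, distance and intron length, where the plan had been to match exon coordinates. Sequences and annotation come from RefSeq TAIR10.

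limma 3.58.1 in R 4.3.3 was fitted to log2((upstream reads + 0.5)/(downstream reads + 0.5)) of all matched events with at least 10 reads in every library and a mean level from 0.02 to 0.98, in 4 groups, with a trend on reads and robust moderation, Benjamini-Hochberg adjusted; it was tested on simulated data. In that test, run at a set spread between libraries, 5.88% of its calls were false. p-values measure the spread between libraries labelled as biological replicates.

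Named were all sites called by rMATS or between accessions, the 8 deepest with levels from 0.2 to 0.8 in all libraries, the deepest of each pair of letters held by at least 20 sites, and those in listed splicing genes. Sites and gene lists were chosen with earlier results of these data known; the splits by the preceding base and by reading frame were chosen after seeing the data.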

Additional observations from a re-analysis of the deposited data

How the results depend on the processing

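No paired analysis was possible because the deposited lists of counts carry no replicate numbers. Sites called by rMATS numbered 5 in Col-0 and 2 in Kn-0. With a least difference of 0.2 they were 3 and 0, with no minimum of reads 15 and 7, and with a mean of at least 20 reads 2 in Col-0. Shares over all alternative 3' splice sites were not computed at these settings, so these counts have no background beside them. The calls of limma between accessions in mock (7) became 12 with no least difference and 13 with binomial weights. Over all 7031 events these 2 settings called 215 and 216. The calls in ABA (6) became 12 with binomial weights, beside 184 of all 7031 events. In simulated data, binomial weights recovered 40% of shifts of 1 and 73% of shifts of 2, with 10.3% of calls false. Leaving out a library gave 6 to 7 calls in mock and 6 to 7 in ABA, and 0 for the ABA response and its difference. Over all 7031 events the same fits called 93 to 120 in mock and 97 to 122 in ABA. Matching also on exon lengths, chosen after seeing the data, gave 5 of 463 in both, beside 55 (mock) and 56 (ABA) of all 4725 events. With a log2 change of at least 1, 112 and 87 genes with a site changed. With at least 50 reads the library medians were 0.9903 in both Col-0 groups, 0.9897 in Kn-0 mock and 0.99 in Kn-0 ABA, and Kn-0 mock had 0.9853 with 1 row per pair. With at least 50 reads the medians by letters were 0.995 for CAGAAG, 0.0187 for AAGCAG, 0.1 for TAGCAG, 0.987 for TAGAAG, 0.926 for AAGAAG, 0.359 for TAGTAG and 0.997 for AAGGAG. That of GAGAAG fell from 0.300 over 33 sites to 0.0214 over 16. Fewer sites enter, and no other cause was tested. Of the values of single sites, 307 kept their direction and call, 13 lost the call and 2 gained it. Depth limits the 7 sites called by rMATS. Leaving out a library kept the direction of the difference at all 7. At the 5 in Col-0 this could not be otherwise, because mock and ABA do not overlap there.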
